A study of Mus musculus with 8 samples.

Results

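The nuclear genes of the mitochondrial respiratory chain were followed across 8 arrays of mouse pancreatic islets. They were chosen by name alone, as all genes whose single symbol on the array begins with Nduf, Sdh and a letter from a to d, Uqcr, Cox4 to Cox8, or Atp5. These prefixes held 94 genes, of which 90 passed the filter on dim probe sets, out of 16396 genes tested. They comprised 36 genes of complex I, 4 of complex II, 8 of complex III, 17 of complex IV, 17 of complex V and 12 assembly factors, which share the prefixes but are not part of the finished complexes. The 4 genes that did not pass were Ndufs5 of complex I and Cox6b2, Cox7b2 and Cox8b of complex IV, and no array read any of them above 4.01. Each gene was represented by 1 probe set, the one with the highest mean over the 8 arrays.

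The respiratory chain sits in the inner mitochondrial membrane. Complexes I and II pass electrons from NADH and succinate to ubiquinone, complex III passes them on to cytochrome c, and complex IV reduces oxygen, while complexes I, III and IV pump the protons that drive ATP synthesis by complex V. In beta cells the ATP made this way closes potassium channels in the plasma membrane, which is the step that couples glucose to insulin release. All complexes except complex II also hold subunits encoded by mitochondrial DNA, which are not among these genes.

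The islets were cut by laser capture from frozen pancreas sections of NOD.Scid mice, which lack T and B cells of their own. Untreated mice (1 array, day 0) were compared with mice that had received CD4+ BDC2.5 transgenic T cells on day 0 and either nothing further, called diabetogenic (arrays of days 3, 4 and 8), or antibodies against interferon-γ on days -1 and 2, called protected (arrays of days 3, 4, 5 and 8). Each array held the amplified RNA of islets pooled from 5 mice, and there was 1 array per arm and day and no array of mice given a control antibody. Day 5 has only the protected arm, as diabetogenic islets were by then too edematous, per the submitters' design text. The spread between mice was therefore not measured, and a difference on a single day has no test.

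The array values differed in ways that bear on every result here. The median log2 value of the arrays lay within 0.21, yet the share of genes at 8 or more times the array median was 4.74% to 5.34% on the untreated and day 3 arrays, 0.85% on the diabetogenic array of day 4 and 2.00% to 3.85% on the other 4 arrays. Spiked control transcripts had a median intensity of 1.48 to 2.29 on the untreated and day 3 arrays and of 551 to 1712 on the 5 later ones, so the arrays split into an early and a late set on this measure too. The ratio of the 3' to the 5' probe set of Actb, a measure of RNA and amplification length, ran from 1.86 (untreated) to 24.2 (protected, day 5). For these reasons each member was also set against the 200 genes outside the list that were nearest to it in mean log2 value over the untreated and day 3 arrays, called here genes of like level. Differences are on the scale log2(intensity + 2.155), which understates the change of dim genes.

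The members were bright before and early after T cell transfer and dim on the diabetogenic array of day 4. Their median intensity was 47.7 in untreated islets. With the diabetogenic arm first, it was 48.3 against 45.2 at day 3, 5.63 against 15.5 at day 4 and 13.4 against 24.5 at day 8, and 35.8 in the protected arm at day 5. The diabetogenic array of day 4 gave the lowest of the 8 values for 65 of the 90 genes, and the untreated array gave the highest for 32. Such counts were not made for all genes or for genes of like level. On the diabetogenic array of day 4, 26 of the 90 members were below the array's median, against 5 on the untreated array. Fewer beta cells and less of these RNAs per cell cannot be told apart in such bulk samples.

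**Figure D1:**
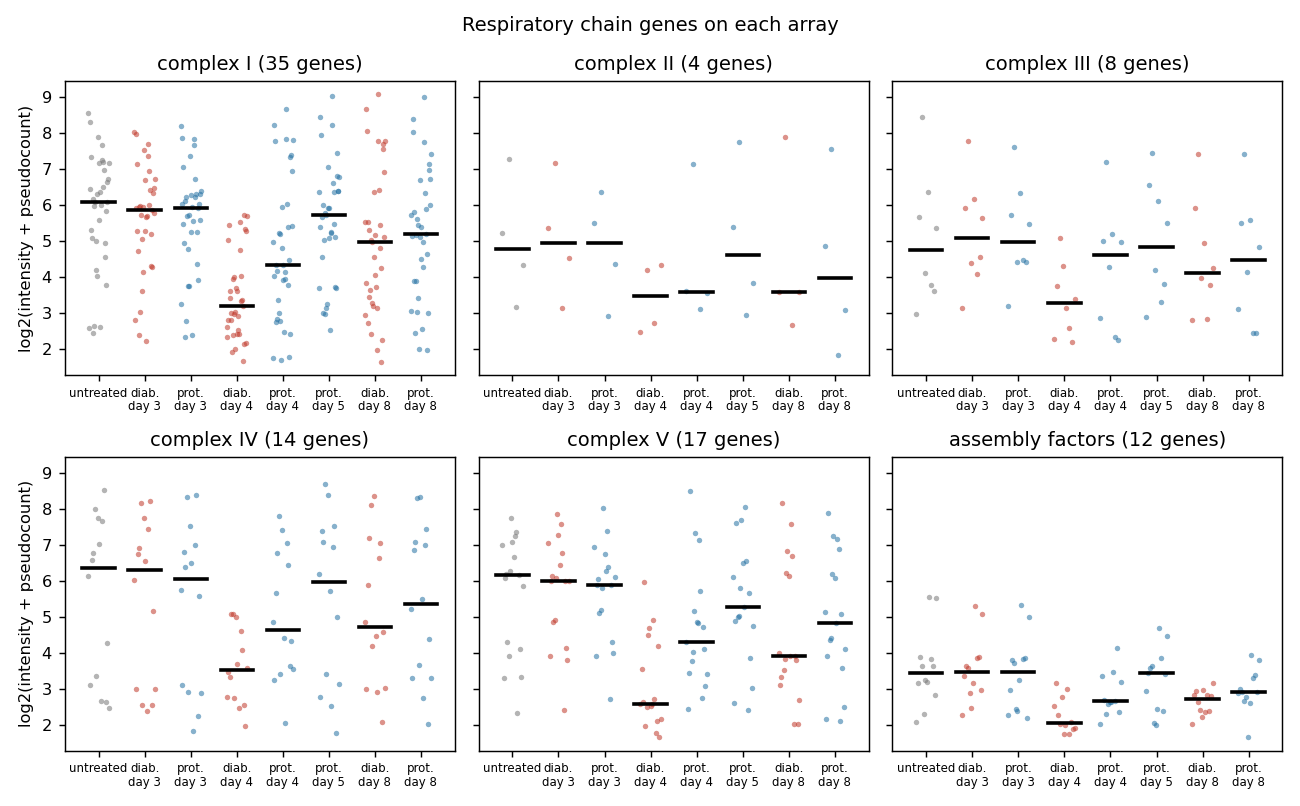
Each point is 1 gene's log2(intensity + 2.155) on 1 array, in a panel per complex, with the black bar at the median of the genes; grey marks the untreated array, red the diabetogenic and blue the protected arrays. The median of complex V stands at 6.16 on the untreated array and at 2.58 on the diabetogenic array of day 4, the lowest of its 8 medians.

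By complex, the median intensity in untreated islets and in diabetogenic islets of day 4 was 66.6 and 6.98 for complex I, 26.6 and 10.5 for complex II, 27.5 and 7.59 for complex III, 81.4 and 9.40 for complex IV, 69.2 and 3.82 for complex V, and 8.89 and 2.02 for the assembly factors. On the protected array of day 4 complex V had a median of 17.7 and complex IV one of 23.1. The assembly factors were dim throughout, with no value above 45.3, and their differences are accordingly small on this scale.

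The first comparison asked whether islets attacked in the presence of interferon-γ differed from islets of antibody-treated mice on the same day. Over the matched days 3, 4 and 8, 76 of the 90 members had a lower mean in the diabetogenic arm, and the median difference was -0.51, against -0.07 for all genes and -0.63 for genes of like level. None of the 90 members passed limma's test with Benjamini-Hochberg adjustment over all genes (18 of all genes did, 0.11%), and 7 members had an unadjusted p under 0.05, all lower in the diabetogenic arm, beside 8.97% of all genes in either direction. The smallest adjusted p among the members was 0.418. The median rests on day 4: without that pair of arrays it was -0.11, with 54 of 90 genes lower. Under cyclic loess scaling, which forces arrays to agree across the brightness range, it was 0.03, with 41 of 90 lower.

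On day 3 the arms differed little in these genes. The median difference of diabetogenic minus protected was 0.05, the range -0.46 to 0.81, and no member was 2-fold lower or higher, beside 0.506% and 1.34% of all genes. The members spread less than all genes did (SD 0.26 against 0.38), a comparison that was not matched for level. Sdhb, the iron-sulfur subunit of complex II, had the largest difference of that day at 0.81.

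On day 4 the diabetogenic array was lower for 73 of 90 members, with a median difference of -1.27, which is a fold of 2.40. That median was -0.78 after quantile normalization and -0.09 after cyclic loess, where complexes I, III and IV were at 0.02, 0.31 and 0.11. At least 2-fold lower were 52 of the 90 (57.8%), beside 14.1% of all genes and 48.6% of genes of like level. Only 1 member, Atp5b, was at least 2-fold higher, beside 5.78% of all genes. The difference followed brightness: the 37 members with a mean log2 value of 6 or more on the untreated and day 3 arrays had a median of -2.25, and the 26 members under 4 had a median of -0.34. Genes of like level had median differences of -1.60 and -0.07 in these ranges. Measured against its own 200 genes of like level, the median member differed by a further -0.30, and 60 of 90 were below theirs.

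On day 8 the diabetogenic array was lower for 56 of 90 members. The median difference between the arms was -0.21 (0.11 after cyclic loess, and -0.10 for all genes), and 10 members (11.1%) were at least 2-fold lower, beside 13.9% of all genes and 26.4% of genes of like level. At least 2-fold higher were 4 members, beside 9% of all genes and 2.86% of genes of like level: Uqcrh, Ndufb1, Ndufb4 and Ndufa4l2. Against genes of like level the median member was 0.29 higher in the diabetogenic arm, and 59 of 90 were above theirs. Over the alternatives tried that value stayed between 0.12 and 0.34, and the day 4 value stayed between -0.44 and -0.04. These medians come from 1 array a side, and no test of them is possible.

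**Figure D2:**
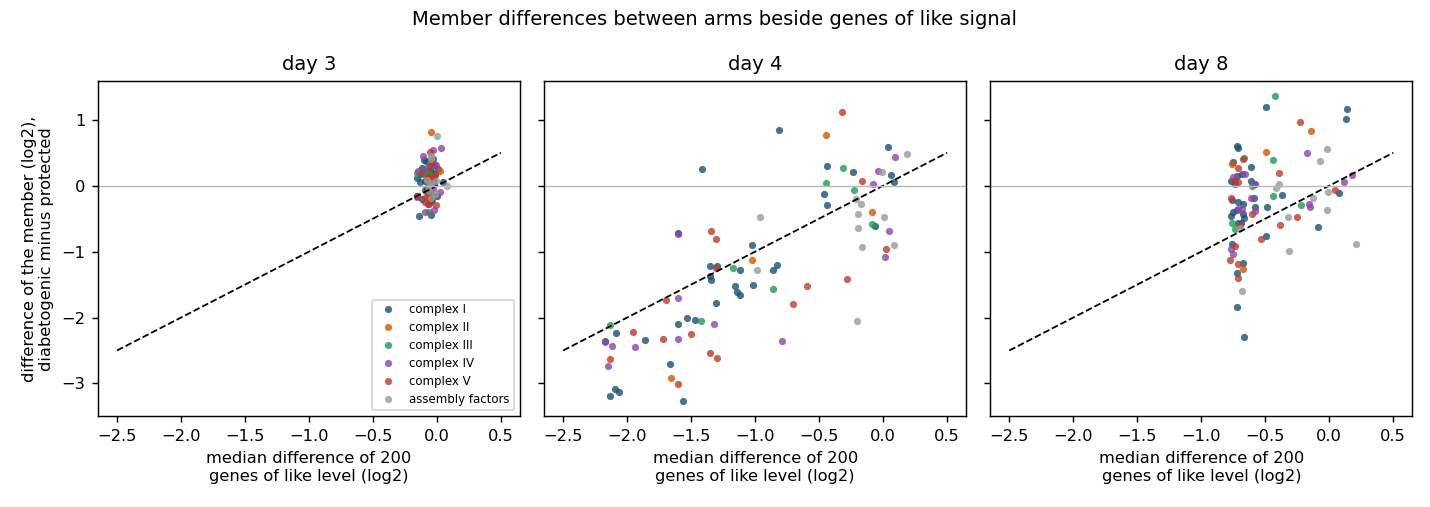
Each point is 1 member, with the median difference between arms of its 200 genes of like level on the x axis and its own difference on the y axis (both log2, diabetogenic minus protected), in a panel per day; the dashed line marks equality. On day 3 the points gather at 0, on day 4 60 of 90 lie below the line and on day 8 59 of 90 lie above it.

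The complexes stood at different distances from genes of like level. On day 4 complex V stood lowest at -0.61, followed by complex IV at -0.40, the assembly factors at -0.26, complex II at -0.21, complex I at -0.19 and complex III at -0.02. Complex V (-0.83 to -0.34), complex II (-0.36 to -0.06) and the assembly factors (-0.44 to -0.07) were below 0 under every scaling, pseudocount, filter and probe set alternative, whereas complexes I and IV were at 0.01 and 0.28 after quantile normalization and complex III at 0.28 after cyclic loess. On day 8 complex II stood highest at 0.99 (4 genes), then complex III at 0.44, complex I at 0.36, complex IV at 0.26 and complex V at 0.11, with the assembly factors at -0.07. The values of complexes I to IV were above 0 under the same alternatives, while that of complex V was -0.12 with the mean of all probe sets and -0.07 after quantile normalization. Whether the complexes differ from each other was not tested, since each value comes from 1 pair of arrays.

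**Figure D3:**
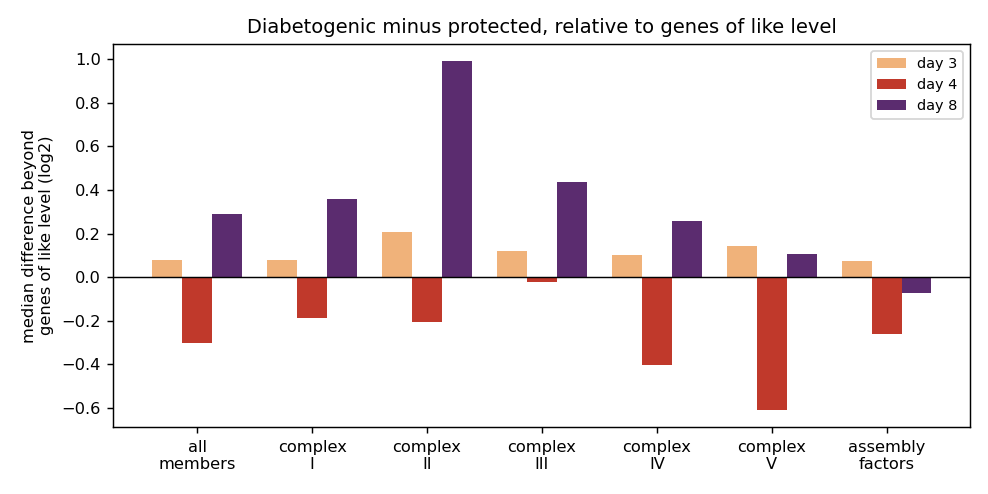
Bars give the median over the genes of each complex of the difference between arms (diabetogenic minus protected, log2) beyond the median of 200 genes of like level, for days 3, 4 and 8; there is 1 array per arm and day, so bars have no error. All members together stand at 0.08, -0.30 and 0.29, and complex V has the lowest bar of day 4 at -0.61.

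Complex I takes electrons from NADH through a matrix arm into a membrane arm. Where a day has both arms, the diabetogenic value is given first and the protected value second. A difference between arms is the mean over the 3 matched days (n = 3). The error after ± is limma's moderated SE, here and below. That SE draws mostly on the variance trend over all genes. It does not measure how well the 3 days of a gene agree. Brightness depends on the probe as well as on the RNA, so levels of different genes are not compared and the brightest gene is named only for orientation. Ndufa1, a small membrane-bound accessory subunit encoded on the X chromosome, was the brightest of its complex on the untreated array, and its intensity was 379.8 untreated, 259.9 against 291 at day 3, 4.03 against 29.5 at day 4, 80.7 at day 5 (protected alone), and 44.2 against 50.7 at day 8. All 5 arrays after day 3 lay below the 3 early ones, and the difference between arms was -0.90 ± 0.62, with an adjusted p of 0.677 in limma's test. Ndufb6, an accessory subunit of the membrane arm, had the smallest adjusted p of all members (0.418), and its intensity was 62.4 untreated, 49.8 against 44.95 at day 3, 3.20 against 13.3 at day 4, 35.6 at day 5 (protected alone), and 1.81 against 17.3 at day 8. The diabetogenic array was the lower one on days 4 and 8 and the higher one on day 3, and the difference between arms was -1.22 ± 0.44. Ndufv2, which carries an iron-sulfur cluster in the NADH-oxidising end of the matrix arm, had the largest negative difference in the complex, -1.33 ± 0.57 with an adjusted p of 0.506. Its intensity was 104 untreated, 87.8 against 77.4 at day 3, 2.35 against 41.2 at day 4, 81.97 at day 5 (protected alone), and 32.5 against 62.2 at day 8. The day 4 value of the diabetogenic array stood apart from the other 7, none of which was below 32.5. Ndufb5, another subunit of the membrane arm and among the 7 with an unadjusted p under 0.05, differed by -1.11 ± 0.45 with an adjusted p of 0.487.

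In the opposite direction, Ndufb1, a small accessory subunit, and Ndufa4l2, a paralog of Ndufa4 known to rise at low oxygen, were higher in the diabetogenic arm on all 3 days without passing the test. Ndufb1 had intensities of 14.2 untreated, 15.8 against 11.5 at day 3, 1.87 against 1.12 at day 4, 7.35 at day 5 (protected alone), and 7.10 against 1.90 at day 8, and differed by 0.63 ± 0.35 with an adjusted p of 0.607. Ndufa4l2 was near the array medians everywhere, with 3.34 untreated, 3.13 against 2.93 at day 3, 5.88 against 5.03 at day 4, 5.84 at day 5 (protected alone), and 8.85 against 3.32 at day 8, and differed by 0.41 ± 0.35. Both are dim genes, and the 2-fold differences of day 8 lie between values of 1.90 and 8.85. Of the 35 complex I genes tested, 31 were lower in the diabetogenic arm over the matched days, with a median of -0.47 that was 0.09 after cyclic loess, and 28 on day 4, of which 23 by at least 2-fold. Some bright complex I genes read near or above their untreated value on the later arrays other than the diabetogenic one of day 4. Ndufa13, an accessory subunit, gave 314 untreated, 252 against 232 at day 3, 30.6 against 297 at day 4, 350.1 at day 5 (protected alone), and 406 against 333 at day 8. Its day 4 diabetogenic value was the lowest by far. Ndufs7, an iron-sulfur subunit next to the ubiquinone site, gave 55.04 untreated, 56.2 against 58.7 at day 3, 51.5 against 161 at day 4, 111 at day 5 (protected alone), and 188 against 123 at day 8. Here the day 4 diabetogenic value stood with the early arrays and the 4 other later values stood above them. Ndufb5, Ndufa13 and Ndufs7 are named after their values were seen.

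Complex II, which is also the succinate dehydrogenase of the citric acid cycle, has 4 subunits, all of nuclear origin. Sdhb was the brightest, with 155 untreated, 144 against 81.2 at day 3, 16.4 against 139 at day 4, 213 at day 5 (protected alone), and 239 against 189 at day 8, and differed between arms by -0.59 ± 0.80. Its lowest value was the diabetogenic one of day 4, and on day 8 the diabetogenic array had the higher value. Sdha, the flavoprotein that oxidises succinate, had the lowest difference of the 4, -0.85 ± 0.43 with an adjusted p of 0.572, from 35.1 untreated, 38.9 against 43.7 at day 3, 3.46 against 10.2 at day 4, 39.97 at day 5 (protected alone), and 9.97 against 27.03 at day 8. The membrane anchors Sdhc and Sdhd had positive differences between arms of 0.22 ± 0.35 and 0.48 ± 0.40, with adjusted p of 0.873 and 0.732 in limma's test. The other probe set of Sdhc was lower in the diabetogenic arm on all 3 days, with a mean difference of -0.36. Sdhd was 18 untreated, 20.96 against 18.6 at day 3, 17.98 against 9.63 at day 4, 12.3 at day 5 (protected alone), and 9.90 against 6.34 at day 8. By this probe set it was higher in the diabetogenic arm on each of the 3 days. Its other probe set read 5.57 against 6.27 at day 3, 2.34 against 8.11 at day 4 and 13.5 against 1.34 at day 8. The complex II median over the matched days was -0.18, with 2 genes lower and 2 higher, and it was 0.03 after quantile normalization and 0.30 after cyclic loess.

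Complex III passes electrons from ubiquinol to cytochrome c. Uqcrb, which helps to bind ubiquinone, was the brightest, with 348 untreated, 220.2 against 193 at day 3, 31.7 against 145 at day 4, 174 at day 5 (protected alone), and 171 against 171 at day 8. Its values on day 8 were nearly equal between the arms. Uqcrc2, a core protein facing the matrix, had the largest negative difference, -0.95 ± 0.53 with an adjusted p of 0.607, and Uqcrq, a small subunit, followed at -0.66 ± 0.48. Other probe sets of Uqcrq differed in direction, with mean differences of 0.17, 0.26 and -0.34, while that of Uqcrc2 had -0.66. Uqcrh, the hinge protein beside cytochrome c1, and Uqcrfs1, the Rieske iron-sulfur protein, had positive differences of 0.47 ± 0.38 and 0.09 ± 0.36. The difference of Uqcrh was largest on day 8, when the diabetogenic array gave 11.8 and the protected array 3.29. On that day its other probe set read 2.14 against 2.09. Over the matched days 6 of the 8 genes were lower in the diabetogenic arm, with a median of -0.26 that became 0.03 after quantile normalization and 0.31 after cyclic loess.

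Complex IV, cytochrome c oxidase, had 14 of its 17 genes tested, and 13 of these were lower in the diabetogenic arm over the matched days, with a median of -0.64 that was 0.05 after cyclic loess. Cox7a2l, by name a relative of Cox7a2 and known as a factor that joins complexes III and IV into supercomplexes, was the brightest on the untreated array, with 364 untreated, 297 against 333 at day 3, 14.7 against 85.6 at day 4, 181 at day 5 (protected alone), and 132 against 173 at day 8. Cox5a, a subunit on the matrix side, had the largest negative difference, -1.12 ± 0.62 with an adjusted p of 0.606. Cox6a1 gave 254 untreated, 285 against 321 at day 3, 31.5 against 222 at day 4, 414 at day 5 (protected alone), and 277 against 317 at day 8 and differed by -1.03 ± 0.997. Its day 4 difference was -2.73, and those of days 3 and 8 were -0.17 and -0.19. Cox6c was 128 untreated, 92.5 against 89.1 at day 3, 10.8 against 19.2 at day 4, 50.8 at day 5 (protected alone), and 20.1 against 43.4 at day 8, and it was lower on all 5 later arrays than on the 3 early ones. Cox6c is named after its values were seen.

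**Figure D4:**
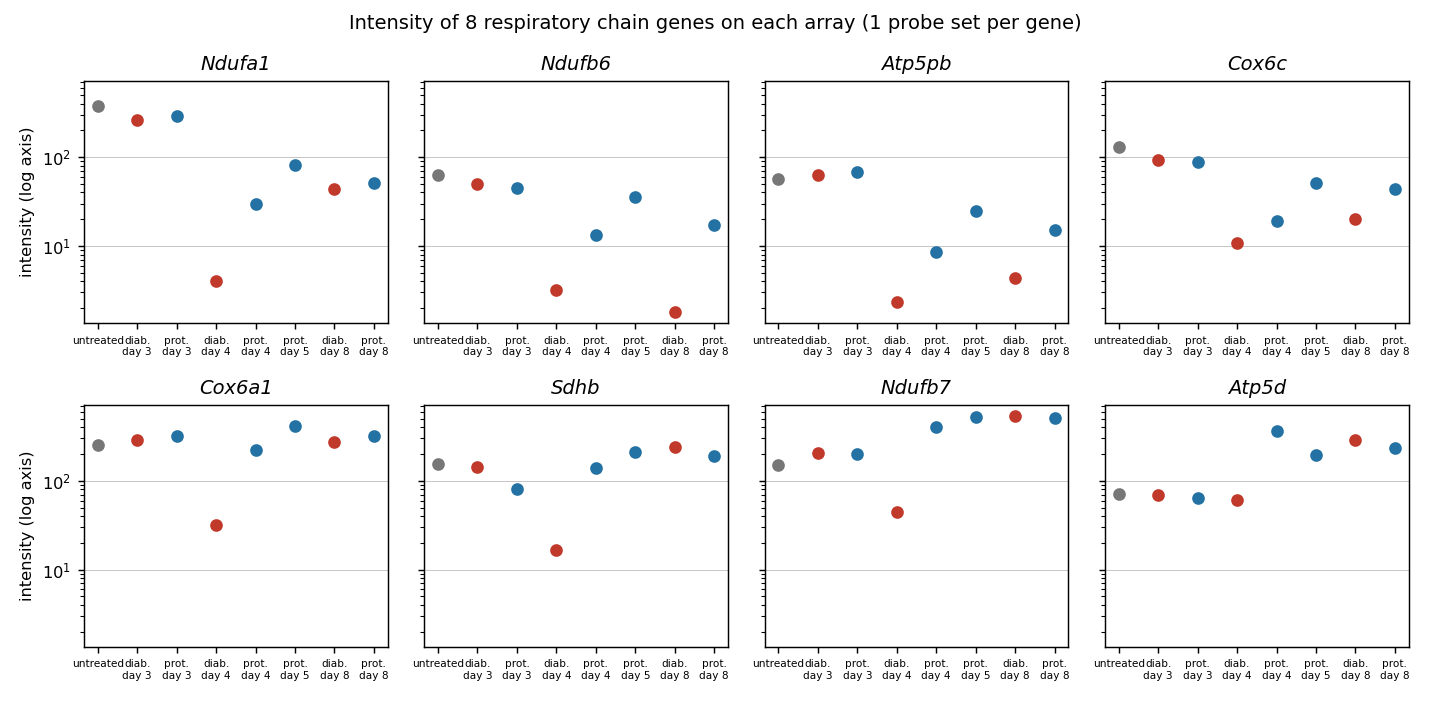
Intensity on a log axis of 8 members on each of the 8 arrays, grey for untreated, red for diabetogenic and blue for protected. Ndufa1, Ndufb6, Atp5pb and Cox6c are lower on all later arrays than on the 3 early ones, whereas Cox6a1 and Sdhb are low on the diabetogenic array of day 4 and Ndufb7 and Atp5d are higher on the other 4 later arrays.

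Several complex IV subunits have isoforms of restricted expression beside a common one. The common isoforms Cox4i1, Cox6a1, Cox6b1 and Cox7a2 had intensities of 51.6 to 321 on the untreated and day 3 arrays, and Cox8a had 17.4 to 45.5. Cox4i2, an isoform of lung and of low oxygen, stayed between 4.70 and 8.98 on all 8 arrays, and Cox6a2, the isoform of heart and skeletal muscle, between 3.77 and 16.0. Cox7a1, also a muscle isoform, ran from 1.38 to 5.42, and Cox8c, known from testis, from 3.41 to 9.81. Cox6b2 and Cox8b did not pass the filter. On day 4 the common isoforms differed between arms by -2.09 (Cox4i1), -2.73 (Cox6a1), -2.43 (Cox6b1), -2.45 (Cox7a2) and -2.36 (Cox8a), whereas the differences of Cox4i2, Cox6a2, Cox7a1 and Cox8c ran from -0.69 to 0.43. The probe sets of Cox8a disagreed: its others read 6.52 against 4.5 and 3.75 against 2.55 on day 4, higher in the diabetogenic arm. Those of Cox6a1, Cox6b1 and Cox7a2 were lower in that arm. The restricted isoforms lay close to the array medians, where a lower level could hardly be seen. Ndufa4, listed with complex I by its name and assigned to complex IV by later work, had 32.1 untreated, 24.5 against 28.6 at day 3, 10.1 against 4.64 at day 4, 21.3 at day 5 (protected alone), and 4.43 against 12.7 at day 8, and the difference between arms was 0.85 on day 4 and -1.17 on day 8.

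Complex V, the ATP synthase, had the lowest median of any complex over the matched days, -0.72, with 15 of 17 genes lower in the diabetogenic arm. This median was below 0 under each scaling, pseudocount, filter and probe set alternative, from -0.94 to -0.13, but with the mean of probe sets complex I had the lowest at -0.46, beside -0.44 for complexes IV and V. Atp5md, a small subunit that joins synthase dimers, had the largest negative difference, -1.23 ± 0.49 with an adjusted p of 0.481. Its intensity was 69.2 untreated, 62.3 against 57.5 at day 3, 2.17 against 24.4 at day 4, 48.6 at day 5 (protected alone), and 12.9 against 31.98 at day 8. The diabetogenic array was the lower one on days 4 and 8 and the difference on day 3 was 0.11. Atp5e, the epsilon subunit of the central stalk, and Atp5pb, the b subunit of the peripheral stalk, also had an unadjusted p under 0.05, with differences of -0.95 ± 0.41 and -0.93 ± 0.42 and adjusted p of 0.507 and 0.524. Atp5pb was lower in the diabetogenic arm on all 3 days, with 56.3 untreated, 62.3 against 67.6 at day 3, 2.34 against 8.57 at day 4, 24.6 at day 5 (protected alone), and 4.34 against 15.1 at day 8. Atp5g3, 1 of 3 genes for the proton-carrying c subunit, was the brightest on the untreated array, with 214 untreated, 232 against 257 at day 3, 23.9 against 158 at day 4, 207 at day 5 (protected alone), and 112 against 151 at day 8, and differed by -1.07 ± 0.83.

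Atp5b, the catalytic beta subunit, had the largest positive difference of all members, 0.70 ± 0.37 with an adjusted p of 0.583. Its values were 7.66 untreated, 12.9 against 12.9 at day 3, 9.63 against 3.26 at day 4, 4.02 at day 5 (protected alone), and 6.58 against 2.31 at day 8, a dim reading on every array. Atp5a1, the alpha subunit that pairs with it, had the lower value in the diabetogenic arm on days 4 and 8, with differences of -1.73 and -1.12. On day 4 the other probe sets of Atp5a1 read 1.86 against 4.63 and 28.2 against 16.8, so they differed in direction. Atp5mpl, another small subunit, was nearly even across arrays, from 9.94 to 17.7, and differed by 0.03 ± 0.40.

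Among the 12 assembly factors, 9 were lower in the diabetogenic arm over the matched days, with a median of -0.14 that was 0.01 when genes had to reach the array median on all 8 arrays. Sdhaf2, which is needed to attach FAD to Sdha, had an unadjusted p under 0.05 and differed by -1.003 ± 0.39 with an adjusted p of 0.468. It gave 10.3 untreated, 12.7 against 12.3 at day 3, 2.10 against 15.6 at day 4, 3.14 at day 5 (protected alone), and 3.10 against 8.29 at day 8. Its protected values alone ran from 3.14 to 15.6. Ndufaf8, which acts with Ndufaf5 on the complex I subunit Ndufs7, was the brightest, with 45.3 untreated, 37.4 against 37.9 at day 3, 5.87 against 9.04 at day 4, 23.6 at day 5 (protected alone), and 2.96 against 13.4 at day 8. Ndufaf5 and Sdhaf3, a factor for the iron-sulfur clusters of Sdhb, had the largest positive differences, 0.10 ± 0.34 and 0.06 ± 0.34, with adjusted p of 0.96 and 0.974. Of the 8 Ndufaf genes none passed the test, and all except Ndufaf8 stayed below 12.7 on every array.

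Members that kept 1 direction on all 3 matched days were 21 lower in the diabetogenic arm (23.3%, beside 20.1% of all genes) and 4 higher (4.44%, beside 11.7%). The 4 were Ndufb1, Ndufa4l2, Sdhd and Cox7a1, and the 21 held 7 genes of complex I, 6 of complex V, 3 of complex IV, 2 each of complex III and the assembly factors, and Sdha. The other probe set of Sdhd was lower in the diabetogenic arm on days 3 and 4. With 3 pairs of arrays a two-sided exact test of 1 gene cannot give a p under 0.25.

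Marker genes of other cell types also differed between arrays. The summed intensity of 8 of 10 acinar markers tested was 1208 on the untreated array, 106 to 1159 in the diabetogenic arm and 461 to 2313 in the protected arm, and on day 4 it was 106 against 2313. That of 4 of 5 alpha and delta cell markers was 5121, 146 to 4757 and 882 to 4024, with 146 against 1481 on day 4. Macrophage markers (8 of 8) summed to 53.7, 145 to 1254 and 214 to 1463, and T cell markers (6 of 8) to 16.9, 23.96 to 59.7 and 31.8 to 81.1. Beta cell markers (8 of 10) summed to 5295, 3812 to 5548 and 4672 to 7318, but such sums rest on a few very bright genes. The median beta cell marker was below untreated on the later arrays, by log2 differences of -3.84 and -3.37 on day 4 (diabetogenic, then protected), -3.67 and -2.56 on day 8 and -1.92 on day 5, and it was below untreated there under each scaling and pseudocount tried. Of the 8, 5 were below the array median on the diabetogenic array of day 4. Endothelial markers (3 of 4) summed to 23.6, 8.89 to 21.9 and 7.92 to 30.5, muscle markers (3 of 4) to 10.6, 9.98 to 16.45 and 8.79 to 24.25, and brown fat markers (2 of 2) to 4.70, 2.98 to 12.5 and 4.19 to 5.83. No marker of these lists was listed at 0, which does not show that each was detected. Other probe sets read exactly 1 on some arrays. The part of cell makeup in the members' differences was not tested.

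The second comparison set each arm against the untreated islets. Over all days the median member differed from untreated by -0.89 in the diabetogenic arm (78 of 90 lower) and by -0.39 in the protected arm (61 lower). This fit takes the days of an arm as replicates, so change between days counts as error. It assumes that the single untreated array varies like the arrays of an arm. A lack of genes that pass therefore does not show that nothing changed. No member passed limma's test in either arm, nor did any of the 16396 genes (0%), and 1 member in each had an unadjusted p under 0.05, beside 2.74% and 2.26% of all genes. That gene was Ndufaf6, an assembly factor of complex I, which differed by -1.11 ± 0.50 (SE, 3 arrays against 1) and -1.08 ± 0.48 (SE, 4 arrays against 1), with an adjusted p of 0.894 in the diabetogenic arm. The diabetogenic median was -0.32 without the array of day 4 and -1.36 without that of day 3. Complex IV had a median of 0.00 in the protected arm, with 7 of 14 genes lower.

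Against untreated, each day gave its own picture. On day 3 no member was 2-fold lower in either arm, beside 1.23% and 1.08% of all genes. On day 4 at least 2-fold lower than untreated were 67 of 90 members in the diabetogenic arm (74.4%, beside 26% of all genes and 71.4% of genes of like level) and 40 in the protected arm (44.4%, beside 20.4% and 51.5%). On day 5, in the protected arm, there were 13 (14.4%, beside 10% and 26.98%). On day 8 there were 35 in the diabetogenic arm (38.9%, beside 22.6% and 54.0%) and 32 in the protected arm (35.6%, beside 14.8% and 39.6%). On the 4 later arrays other than the diabetogenic one of day 4 the members' share was below that of genes of like level, a difference that was not tested. At least 2-fold above untreated were few members: in the diabetogenic arm none at day 3 (beside 2.81% of all genes), 1 at day 4 (9.81%) and 6 at day 8 (14.3%), and in the protected arm 2 at day 3 (2.2%), 4 at day 4 (10.1%), 4 at day 5 (9.76%) and 3 at day 8 (9.76%). The order depends on how level is defined: with level taken over all 8 arrays the median member differed from such genes by -0.74 and -0.33 in the diabetogenic arm at days 4 and 8 and by -0.55, -0.22 and -0.55 in the protected arm at days 4, 5 and 8. Defined by the early arrays, the same values were -0.03 and 0.46, and 0.23, 0.17 and 0.16.

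Leaving out the diabetogenic array of day 4, 10 members (11.1%, beside 5.76% of all genes) were at least 2-fold below untreated on each of the 4 other later arrays. They were Ndufa1, Ndufa12, Ndufb3, Ndufb5 and Ndufc1 of complex I, Cox6c of complex IV, the gamma subunit Atp5c1, Atp5j and Atp5pb of complex V, and the assembly factor Sdhaf4. Ndufa1 had the lowest mean difference over these 4 arrays, at -2.92. The share of genes of like level that were lower on all 4 was not counted. On each of the 4 arrays alone, genes of like level were 2-fold lower more often than members. At least 2-fold above untreated on all 4 were Ndufb7, a complex I subunit of the intermembrane space face, and Atp5d, the delta subunit of the synthase's central stalk (2.22%, beside 1.95% of all genes). Ndufb7 had 152 untreated, 208 against 201 at day 3, 44.6 against 408 at day 4, 519 at day 5 (protected alone), and 540.2 against 513 at day 8. Atp5d had 70.8 untreated, 68.4 against 63.9 at day 3, 60.4 against 359 at day 4, 195 at day 5 (protected alone), and 286 against 236 at day 8, so its diabetogenic value of day 4 stood with the early arrays while its other later values ran from 195 to 359. These lists were made after the values were seen, and the same arrays are those with bright spiked controls; the part of that split was not tested.

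Members that were lower or higher together were looked at in their promoters, taken as the 250 bases before the start site in RefSeq on GRCm38.p6, which held 74 of the 90 members. Only members with a single promoter entry were eligible to be shown, and a chromosome was left out. Among the eligible members that were 2-fold lower on all 4 later arrays, Ndufa1 and Atp5pb had the lowest mean differences and are shown. Ndufb7 is shown as a member that was 2-fold higher on these arrays. The promoters lie at chrX:37191239-37191488 on the minus strand, chr3:105959264-105959513 on the minus strand and chr8:83566508-83566757 on the plus strand, in that order. Each is read 5′ to 3′ toward the gene. Capitals mark the letters of a GC box (GGGCGG, bound by Sp1) or of the ETS core (CCGGAAG, bound by GABP), on either strand.
Ndufa1: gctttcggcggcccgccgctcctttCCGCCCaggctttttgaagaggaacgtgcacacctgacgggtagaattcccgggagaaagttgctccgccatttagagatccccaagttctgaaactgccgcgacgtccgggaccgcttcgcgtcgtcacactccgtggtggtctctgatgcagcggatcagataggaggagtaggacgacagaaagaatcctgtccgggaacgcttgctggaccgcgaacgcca
Atp5pb: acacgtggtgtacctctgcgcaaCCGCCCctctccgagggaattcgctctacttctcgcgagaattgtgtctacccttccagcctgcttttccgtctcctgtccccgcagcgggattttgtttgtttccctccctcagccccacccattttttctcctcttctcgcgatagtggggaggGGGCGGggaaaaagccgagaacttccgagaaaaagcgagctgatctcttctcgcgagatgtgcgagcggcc
Ndufb7: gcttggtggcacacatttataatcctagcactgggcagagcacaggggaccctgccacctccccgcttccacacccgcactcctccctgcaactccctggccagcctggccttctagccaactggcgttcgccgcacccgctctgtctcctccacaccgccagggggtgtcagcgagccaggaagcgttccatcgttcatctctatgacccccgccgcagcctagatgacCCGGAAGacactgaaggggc
NRF1 and GABP are known activators of respiratory chain genes. The NRF1 core, read as GCGCA, any base and GCGC, was present in 10 of the 74 promoters (13.5%), beside 3.86% of 27018 promoters of the same length, and CCGGAAG in 15 (20.3%, beside 7.05%). The GC box was present in 33 (44.6%, beside 32.9%), CCAAT in 31 (41.9%, beside 34.5%) and the YY1 motif, AAGATGG followed by CGG, in 0 (beside 0.289%), all counted on both strands. The members' promoters had a median GC content of 57.6%, beside 52.0% for all promoters, and its part in these shares was not tested. Of the 9 genes that were 2-fold lower on all 4 later arrays and have a promoter in the table, 0 held the NRF1 core and 0 the ETS core, 5 held the GC box and 2 held CCAAT. A match is only a run of letters, and its absence from this window says nothing about the factor.

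The third comparison asked whether the members changed with time after transfer. Over the 7 injected arrays the median change was -0.03 per day, with 56 of 90 members negative in the fit, and no member and no gene of the whole table (0%) passed limma's test. At an unadjusted p under 0.05 there were 2 members (beside 9% of all genes): Ndufs1, the largest iron-sulfur subunit of complex I, at -0.36 ± 0.15 per day, and Cox6a2 at 0.23 ± 0.11 per day (SE, 7 arrays), with adjusted p of 0.546 and 0.554. Ndufs1 had 21.4 untreated, 17.9 against 18.7 at day 3, 1.04 against 1.33 at day 4, 11.2 at day 5 (protected alone), and 1.01 against 1.81 at day 8. The direction of the median turned with the arrays used: it was 0.09 per day without the diabetogenic array of day 3 and 0.18 over the arrays of days 4, 5 and 8. The arms' slopes differed by a median of 0.03 per day, 0 of 90 members passed limma's test of that difference (0% of all genes) and 0 had an unadjusted p under 0.05 (beside 1.99%). That median was -2.08 without the diabetogenic array of day 8, where the arm's slope spans a single day, and 0.34 without that of day 3.

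Other probe sets of the same genes gave a check of these patterns. There were 86 for 51 of the genes, and 63 of the 86 had the same sign as the probe set used in the difference between arms and 57 on the 4 later arrays against untreated. Among the 43 with a mean intensity of at least 10 these counts were 38 and 31. Where the probe set used was below untreated by 1 or more on the log2 scale, 21 of 26 other probe sets were also below untreated and 17 by 1 or more. Where it was above by 1 or more, which was so for Ndufb7, Ndufs7 and Atp5d, none of the 3 others was, with values of -0.24 to 0.20. For Ndufb6 the other probe set gave 1.72 and 2.16 on day 4 and 1.74 and 12.6 on day 8, and for Ndufb5 1.99 and 2.04 and 1.19 and 4.12. The other probe set of Sdhaf2 read no higher than 8.19 on any array. It gave 7.42 against 8.19 on day 4, and its mean difference between arms was only -0.15. Of the 90 probe sets used, 13 carry the suffix _s and 14 the suffix _x, which mark probes that may also bind other transcripts.

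**Figure D5:**
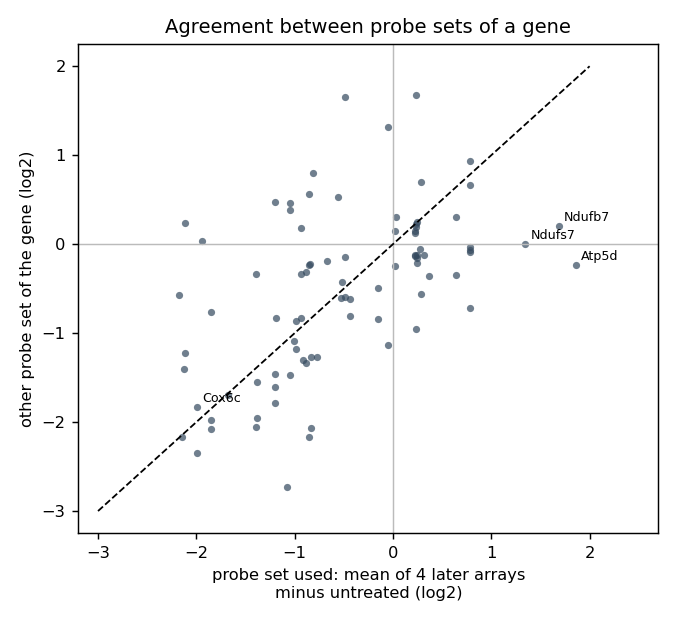
Each point is another probe set of a member, with the mean of the 4 later arrays (protected days 4, 5 and 8, diabetogenic day 8) minus untreated in log2 on the y axis, against the same value of the probe set used on the x axis; the dashed line marks equality. The 3 points at 1 or more on the x axis, Ndufb7, Ndufs7 and Atp5d, lie between -0.24 and 0.20 on the y axis.

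Genes of neighbouring mitochondrial pathways were read on the same arrays for comparison, and none of them passed limma's test between the arms (0.11% of all genes did). Over days 4 and 8 the median difference between arms was -0.83 and -0.47 for 15 genes of the citric acid cycle and pyruvate oxidation, -0.98 and -0.38 for 25 inner membrane carriers and import genes, -1.10 and -0.25 for 9 antioxidant genes, and -0.59 and -0.30 for 75 genes of the mitochondrial ribosome. It was -0.26 and 0.09 for 29 electron carriers and further assembly factors, -0.18 and -0.31 for 18 regulators of mitochondrial biogenesis, and -0.22 and -0.32 for 16 genes of glycolysis. The 53 tested genes of the cytosolic ribosome, with a median log2 value of 6.63 on the untreated and day 3 arrays, had -2.14 and -0.26, with 36 of them at least 2-fold lower on day 4. The day 4 median of that list was below the medians of all 5 complexes on the deposited scale. After cyclic loess the day 4 medians of carriers and of glycolysis turned to 0.10 and 0.13, and those of the citric acid cycle, the antioxidant genes, the mitochondrial ribosome and the cytosolic ribosome were -0.11, -0.02, -0.23 and -0.22. On day 8 the same scaling turned the medians of carriers, antioxidant genes, the mitochondrial ribosome and glycolysis to 0.06, 0.07, 0.02 and 0.08, while median centring turned that of the electron carriers to -0.01.

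Within these lists the genes with the largest differences over the matched days were mostly lower in the diabetogenic arm. In the citric acid cycle they were Mdh2 at -1.17 ± 0.72, malate dehydrogenase, and Fh1 at -1.13 ± 0.41, fumarate hydratase. Uqcc2, an assembly factor of complex III, had -1.18 ± 0.51 and Cox17, the copper chaperone of complex IV, -1.05 ± 0.55. Among carriers Slc25a5, an ADP/ATP carrier, had -0.98 ± 0.52 and Phb2, a prohibitin, -0.91 ± 0.74. The antioxidant genes were led by Gpx1, glutathione peroxidase, at -1.28 ± 0.69 and Sod1, superoxide dismutase, at -0.84 ± 0.79. In glycolysis Pgk1, which makes ATP directly, had -1.41 ± 1.08 and Ldha, lactate dehydrogenase, -1.002 ± 0.39. The ribosomal lists were led by Mrpl15 and Mrpl28 at -1.06 ± 0.42 and -1.04 ± 0.42 and by Rps9 and Rpl22 at -1.58 ± 0.42 and -1.56 ± 0.98. Gabpa, the DNA-binding subunit of GABP, had the largest difference among regulators and was higher in the diabetogenic arm at 0.90 ± 0.37, with 15.1 and 2.96 on day 4 and 7.52 and 1.87 on day 8, while Clpp, a mitochondrial protease, had -0.84 ± 0.43. Atpif1, the inhibitor of ATP synthase, had -0.79 ± 0.46, with 107 on the untreated array, 2.77 and 9.29 on day 4 and 11.1 and 32.1 on day 8. Their adjusted p ran from 0.226 to 0.773, and none passed.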

How the data were processed

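Per the labels' protocols, islets were laser-captured, RNA of 5 mice was pooled per array, about 30 ng was amplified and the product was labelled with biotin. The authors deposited linear intensities for 45101 probe sets of 8 Affymetrix arrays. Their summarisation and scaling are not given in the sources used here. Names come from the 2016 annotation of the platform, and the 34958 probe sets with 1 symbol were used, which leaves out 10 that carry several symbols including one of the rule.

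Values were taken to log2(intensity + 2.155), where 2.155 is the median of the arrays' 25th percentiles. The deposited scale was kept because array medians lay within 0.3. A probe set was tested if at or above the array median on at least 2 arrays. Arms were compared over 6 arrays blocked by day, each arm with the untreated array over all 8, and slopes over 7, with limma 3.58.1 in R 4.3.3 (variance trend, Benjamini-Hochberg, threshold 0.05), tested on simulated data. In the comparison of arms a gene's own spread has 2 residual degrees of freedom against 29.99 from the trend, and p-values measure the spread between arrays, not mice.

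Named were, per complex, the brightest untreated member and the 2 largest differences in each direction between arms, the isoform pairs, Atpif1, and the 2 largest differences of each pathway list. Members and lists were chosen with earlier results of these data known. Alternatives covered pseudocount, scaling, filter, probe set, variance trend, day block, level definition and each array left out.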

Additional observations from a re-analysis of the deposited data

Results flagged for a closer look

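Sdhc, a membrane anchor of complex II, had 1 value far from the others in the protected arm. Its intensity was 5.41, 6.59 and 5.61 on days 3, 4 and 5 and 1.42 on day 8, and the gap below the next value made up 0.838 of the range on the log2 scale, past the 95% limit of Dixon's ratio for 4 values. In all, 41 such series of 4 protected arrays were examined, and chance alone puts about 1 in 20 past the limit. All 4 values lie close to the array medians of 3.14 to 3.61, so the gap is between dim readings.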

How the results depend on the processing

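In the 5 comparisons, 0 members passed limma's test in any of the 78 refits, with each array or matched pair left out (0 to 0 for each result) and without the day as a block (0 of 90, and 0 of all genes). Between arms the members at an unadjusted p under 0.05 ran from 0 (no day block, beside 1.66% of all genes) to 21 (without the day 3 pair, beside 10.4%), with 2 without day 4 (7.02% of all genes) and 3 without day 8 (6.61%). Without the diabetogenic array of day 3 they were 30 in that arm against untreated (17.2% of all genes) and 14 for the difference in slopes (5.17%), without that of day 4 they were 13 for the slope over all injected arrays (14.97%), and without that of day 8 they were 46 for the difference in slopes (12.2%). Of the 143 other values recomputed against genes of like level, 135 moved by less than an SD. This is the SD of the main values over the days of that comparison. It holds the change between days and is a loose limit. The day 4 difference between arms thus counts as unmoved although it ran from -0.44 to -0.04, against -0.30. The 8 values that moved more concern single arrays against untreated. With level taken over all 8 arrays the member median was -0.74 (diabetogenic day 4), -0.55 (protected day 4), -0.22 (protected day 5), -0.33 (diabetogenic day 8) and -0.55 (protected day 8). With genes at or above the median on all 8 arrays (57 members) it was -0.0090, -0.031 and -0.13 in the protected arm on days 4, 5 and 8, against 0.23, 0.17 and 0.16. The median difference between arms ran from -0.84 to 0.03 over all alternatives. Cyclic loess scaling also moved the median of all genes from -0.13 to 0.03 on day 4, and in that setting the day 4 and day 8 medians of the members were -0.09 and 0.11. Whether the deposited scale or cyclic loess is nearer the RNA content of the islets was not tested. With 1 array per arm and day, the number of arrays limits every comparison, and many assembly factors lie near the array median, where a loss is hard to see.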
